A study of Mus musculus with 42 samples.

Results

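The RNAs that stayed associated with Tnrc6a in cells without Ago2 were measured by RNA immunoprecipitation and sequencing in mouse embryonic stem (ES) cells. The comparison took 12 of the 42 libraries of the series: 3 anti-HA immunoprecipitates (IPs) and 3 inputs of the Ago2KO line, and 3 IPs and 3 inputs of untagged cells, all from experiment 2. Ago2KO cells carried HA-AVI-Tnrc6a and were Ago2-/-, so the protein pulled down was tagged Tnrc6a. Untagged cells held neither change, and their IP gave the RNA that the beads took up with no HA tag present. Every line, the controls included, was of 129S6/SvEvTac origin, held the GFP_5xT71BS reporter and stably expressed FLAG-Cas9 with blasticidin resistance. All were grown on gelatin with LIF. The labels do not say whether a line was 1 clone, or whether the 3 replicates of a group came from separate clones, so p-values measure the spread between these samples, which may be technical. Libraries of the tagged line (HA-AVI-Tnrc6a with Ago2 intact, 6 in experiment 2) and the 12 untagged and tagged libraries of experiment 1 were used to place the result.

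GW182 proteins, of which mammals have Tnrc6a, Tnrc6b and Tnrc6c, are scaffolds of RNA silencing. Argonaute proteins, loaded with microRNAs, bind their glycine-tryptophan repeats, and the scaffold recruits the CCR4-NOT and PAN2-PAN3 deadenylases to the target mRNA. Ago2 is 1 of 4 mammalian Argonautes. In ES cells the miR-290 cluster is a major source of microRNA, and the RNA-binding protein TRIM71 (LIN41) represses a set of mRNAs that includes Cdkn1a.

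Reported targets of 3 microRNA families are described further on, so the mature sequences of family members are shown here, from RefSeq (GRCm38.p6), 5′ to 3′ with the seed, bases 2 to 8, in capitals. No microRNA level was measured in these libraries.
mmu-miR-291a-3p: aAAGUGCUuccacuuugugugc
mmu-miR-294-3p: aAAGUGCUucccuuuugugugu
mmu-miR-295-3p: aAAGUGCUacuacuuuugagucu
mmu-miR-17-5p: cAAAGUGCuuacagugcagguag
mmu-miR-20a-5p: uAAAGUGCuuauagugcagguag
mmu-let-7a-5p: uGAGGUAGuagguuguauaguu
mmu-let-7g-5p: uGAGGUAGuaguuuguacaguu
The miR-290 cluster members, which lie between chr7:3218968-3218989 and chr7:3220815-3220837 on the plus strand, had the seed AAGUGCU. The miR-17 members (chr14:115043684-115043706 and chr14:115044183-115044205, plus strand) had AAAGUGC, so the 6 letters AAGUGC were shared and began 1 base further from the 5′ end, at base 3 instead of base 2. The let-7 members had GAGGUAG.

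The 12 libraries held 16296447 to 20661884 counts each. Values per library are CPM, the counts scaled to a common library size and corrected for library composition. The quantity tested was the difference of log2 IP over input, Ago2KO minus untagged cells, by edgeR's quasi-likelihood test with Benjamini-Hochberg adjustment; a gene with an adjusted p under 0.05 is named called. The table held 19866 genes, of which 19778 passed the filter on low counts. ES cell identity was borne out by the level of the markers: the 10 ES cell markers had a summed input level of 7634 to 8026 CPM in untagged and 8887 to 9055 CPM in Ago2KO cells. Of these 10, 5 were called higher in the Ago2KO input and 0 lower. The 8 primitive endoderm markers summed to 68.3 to 77.4 CPM in untagged and 56.6 to 65.9 CPM in Ago2KO inputs, and 4 of them were called lower in the Ago2KO input. Primed epiblast and mesoderm markers (6 of 8 with rows) summed to 43.5 to 47.3 CPM in untagged and 35.1 to 38.4 CPM in Ago2KO inputs, and the 2 of 8 fibroblast markers with rows to 28.3 to 35.1 and 29.9 to 35.1 CPM. Their part in the results was not tested. In the inputs alone, 2994 genes differed between Ago2KO and untagged cells (15.1% of those tested), and the quantity tested subtracts the input of each line.

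The targeted genes came first. Ago2 RNA in the input was 158, 162 and 167 CPM in Ago2KO cells and 373, 434 and 370 CPM in untagged cells. The level was thus lower in every Ago2KO library but not 0 (log2 difference -1.27, adjusted p = 1.1e-09). A count over the whole gene does not show which part of Ago2 was deleted. Tnrc6a RNA (chr7:123031101-123195296, GRCm38), which encodes the tagged protein, reached 31194, 17218 and 14785 CPM in the Ago2KO IPs. In the untagged IPs it was 90.4, 82.7 and 74.2 CPM, and in the 6 inputs 89.7 to 119 CPM. Its IP over input was 181-fold in Ago2KO cells, 0.863-fold in untagged cells and 206-fold in tagged cells, and it had the highest difference of the genes named here (log2 difference 7.71, SE 0.31, adjusted p = 3.3e-15). Ago2KO replicate 1 had the highest IP level for Tnrc6a and for most of the RNAs described next. The tagged IPs had the same order for Tnrc6a, at 24216, 17194 and 12945 CPM in replicates 1 to 3.

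Without Ago2, Tnrc6a still associated with many RNAs. 3133 genes were called higher than in untagged cells, 15.8% of the 19778 tested, with a median log2 difference of 0.84 among them. Of these, 1270 were higher by at least 2-fold (6.42% of the genes tested), 361 by at least 4-fold, 102 by at least 8-fold and 19 by at least 16-fold. The mean IP level itself was higher in Ago2KO than in untagged cells for 3103 of the 3133 genes. Another 1010 genes were called lower (5.11%), of which 48 reached 2-fold, so that 20.9% of genes were called in all. The scaling sets the centre of all genes near 0 (median 0.00, and -0.10 with library size alone), so values are relative to the median gene; the median SE was 0.18. Among the calls 75.6% were higher; this share was 64.8% with RLE size factors, 57.3% with library size alone and 63.5% with DESeq2. The count of lower calls was 564 without Ago2KO IP replicate 1 and 642 without untagged input replicate 2. In untagged cells 144 genes differed between IP and input (0.728%). That count depends on the spread between libraries as well as on how far the bead background differed from input. It does not show that the 2 were alike, and the amount of background RNA was not measured.

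The genes of this paragraph and the next were named by a rule that required IP minus input values separated from those of untagged cells. Of the 3133 genes called higher, 2889 met that separation. Calls and separation were read from the same libraries, so this count adds no support to the calls. The share of all tested genes that met it was not counted. Zbtb7a had the highest difference after Tnrc6a among the genes named here. This zinc finger repressor gene (chr10:81135225-81152222) had 2699, 1493 and 1439 CPM in the Ago2KO IPs and 59.6, 64.2 and 66.4 CPM in the untagged IPs. Its inputs were 41.0 to 45.6 CPM in Ago2KO and 65.5 to 69.3 CPM in untagged cells. The Ago2KO IPs lay far above all the other 9 libraries, at 43.3-fold over input (log2 difference 5.53, SE 0.27, adjusted p = 7.0e-14). Zfp367 (chr13:64133022-64153199), another zinc finger gene, had 871, 489 and 489 CPM in the Ago2KO IPs against 27.3, 29.8 and 28.5 CPM in the untagged IPs (log2 difference 4.71, SE 0.25). For Cdkn1a (chr17:29090979-29100722), the p21 inhibitor of cyclin-dependent kinases, the Ago2KO IPs had 1936, 1161 and 1326 CPM and the untagged IPs 65.3, 76.2 and 75.5 CPM, with inputs of 65.7 to 77.9 and 67.5 to 73.6 CPM. The groups did not overlap for either gene, and the Cdkn1a inputs of both lines covered the same range (log2 difference of IP over input 4.33, SE 0.21, adjusted p = 4.7e-14).

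Ccng2 (chr5:93267573-93276231), an unconventional cyclin linked to cell-cycle arrest, had 1135, 697 and 807 CPM in the Ago2KO IPs against 53.5 to 59.0 CPM in the untagged IPs (log2 difference 4.24, SE 0.22). Rbl2, the pocket protein p130 that holds E2F factors in check, had 331, 199 and 188 CPM against 14.7 to 18.2 CPM (4.26, SE 0.27). Both were separated from untagged cells in every IP, and the rule that named them required separated IP minus input values. The zinc finger genes Plagl2 (4.55, SE 0.31) and Zfp827 (4.49, SE 0.28), the immediate early response gene Ier5 (4.47, SE 0.34) and the TGF-beta superfamily ligand Gdf11 (4.09, SE 0.49) had log2 differences in the same range. Tagap1 (5.03, SE 0.32) and Tagap (4.89, SE 0.32) are near-identical copies on chromosome 17 that can share reads, so their separate values are uncertain. None of these 11 mRNAs was called different between Ago2KO and tagged cells, with log2 differences of -0.57 to 0.56 between the lines. A missed call does not show that they were held equally.

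**Figure D1:**
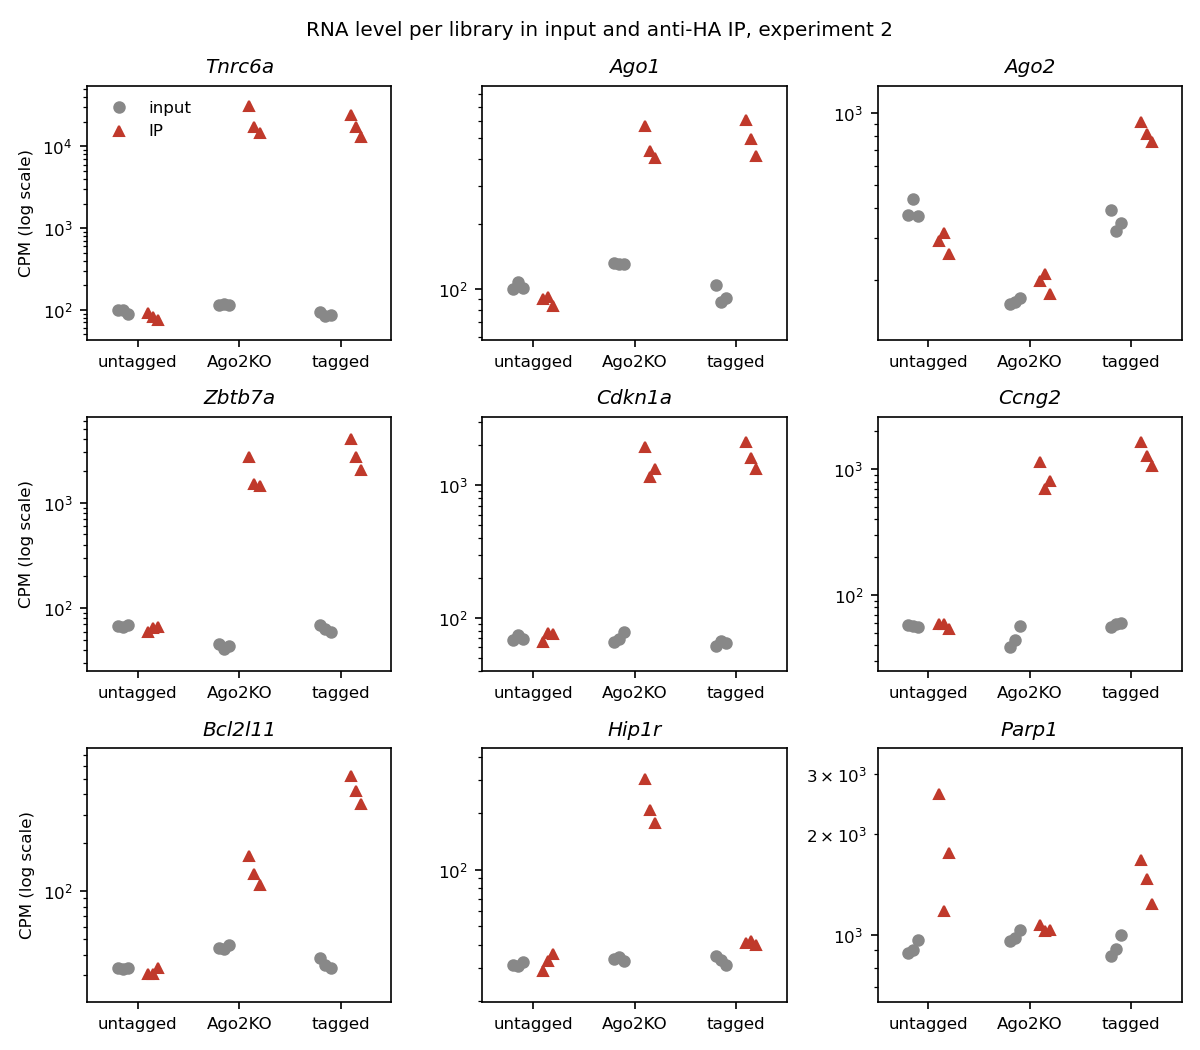
RNA level in CPM (log scale) of 9 genes in each input (circles) and anti-HA IP (triangles) of untagged, Ago2KO and tagged cells of experiment 2, 3 libraries a group. The Ago2KO IPs of Zbtb7a (1439 to 2699 CPM) sit far above the untagged IPs (59.6 to 66.4 CPM), Bcl2l11 lies between untagged and tagged cells, Hip1r is highest in the Ago2KO IPs, and Parp1 is highest in an untagged IP.

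Genes selected in separate libraries gave a check that did not reuse the Ago2KO values. In experiment 1, 3601 of 18772 genes (19.2%) were called higher by at least 2-fold in tagged than in untagged cells, and 3558 of these were tested in experiment 2. Without Ago2, 2363 of the 3558 (66.4%) were called higher, 1 was called lower and 1194 were not called. The gene called lower was Ormdl1 (log2 difference -0.26, adjusted p = 0.044), an endoplasmic reticulum protein of sphingolipid regulation. The median log2 difference of the list was 0.78 without Ago2 and 1.04 in tagged cells of experiment 2, against -0.08 without Ago2 in the other 14995 genes tested in both experiments, of which 5.06% were called higher. Read the other way, the 2363 genes made up 75.7% of the 3122 genes called higher without Ago2 that experiment 1 could test.

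**Figure D2:**
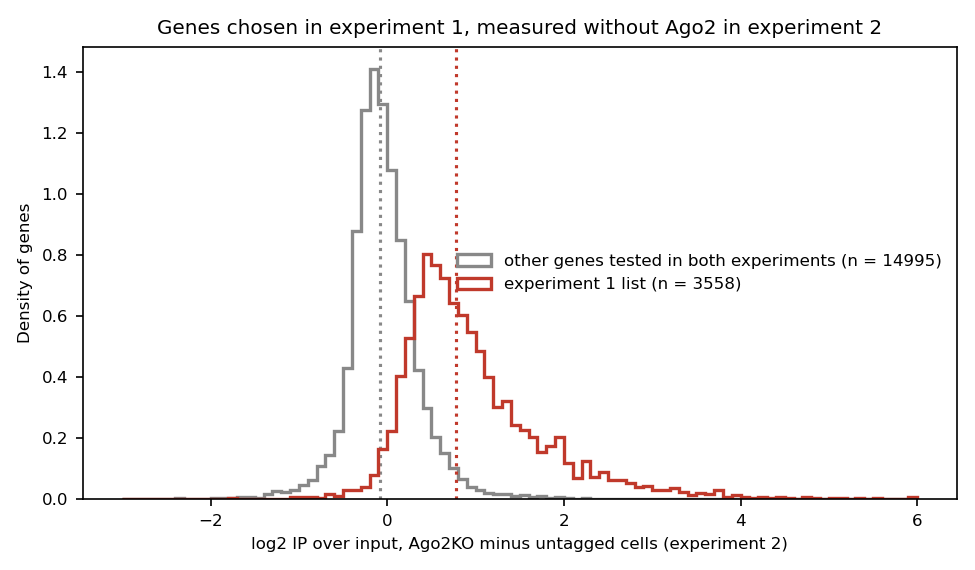
Density of genes by the log2 difference of IP over input, Ago2KO minus untagged cells, for the 3558 genes called higher by at least 2-fold in experiment 1 and the other 14995 genes tested in both experiments; dotted lines are medians (0.78 and -0.08), and the outermost bins also hold genes beyond them. The list is shifted to the right of the other genes, with a tail to high values.

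The stronger the enrichment in experiment 1, the larger was the association without Ago2. Genes with a log2 difference of 1 to 1.5 in experiment 1 had a median of 0.44 without Ago2, and 48.4% of them were called higher. The median rose to 0.66 (64.7% called) for genes at 1.5 to 2, to 1.01 (74.6%) at 2 to 3, to 1.68 (84.4%) at 3 to 4 and to 2.63 (85.5%) at 4 or more. Tagged cells of experiment 2 had medians of 0.59, 0.92, 1.39, 2.17 and 3.21 in the same 5 bins, higher in each, with the untagged libraries shared by both values. Across the 18553 genes tested in both experiments, Pearson's r between the experiment 1 and the Ago2KO differences was 0.760 and Spearman's rho 0.692; genes are not independent replicates, and each experiment's genes share its libraries and their depth.

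Each Ago2KO IP showed the list as a whole. The median log2 IP over the mean input of its line was 0.85, 0.62 and 0.60 in the 3 Ago2KO IPs, and -0.10, -0.05 and -0.07 in the 3 untagged IPs. In the 3 tagged IPs it was 1.14, 0.95 and 0.84. The Ago2KO and untagged libraries were separated, and Ago2KO replicate 1 overlapped the lowest tagged IP. Over all genes these medians were between -0.04 and 0.02 in the 9 IPs.

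**Figure D3:**
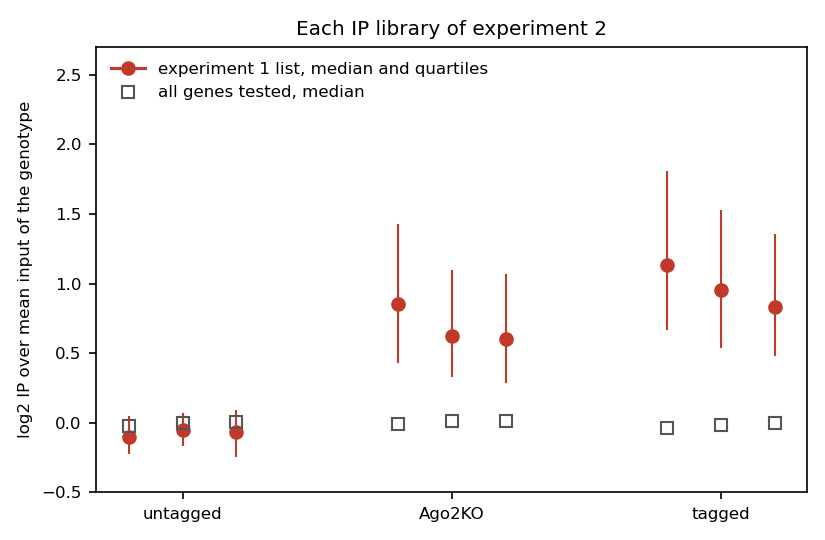
Median log2 IP over mean input of the line for the 3558 genes of the experiment 1 list (circles, bars from the lower to the upper quartile) and for all genes tested (squares), in each IP of untagged, Ago2KO and tagged cells of experiment 2. The Ago2KO medians (0.60 to 0.85) sit above the untagged (-0.10 to -0.05) and mostly below the tagged ones (0.84 to 1.14).

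In the Argonaute and GW182 family, 6 of 7 mRNAs were called higher without Ago2, none lower (15.8% and 5.11% of all genes were), with a median log2 difference of 1.38 (1.83 in tagged cells). The 6 include Tnrc6a, which encodes the tagged protein, and Ago2, the gene targeted in this line. None lower also held at an unadjusted p under 0.05 and with DESeq2, where 0 were lower. Ago1 mRNA (chr4:126435012-126468707), which encodes another Argonaute, had 567, 435 and 405 CPM in the Ago2KO IPs, 83.0 to 92.2 CPM in the untagged IPs and 130 to 132 CPM in the Ago2KO inputs (log2 difference 2.06, SE 0.15, adjusted p = 7.0e-11). What remained of Ago2 mRNA itself was 198, 211 and 175 CPM in the Ago2KO IPs. That was lower than the 255 to 313 CPM of the untagged IPs, yet relative to its lower input the association was higher (0.72, SE 0.14, adjusted p = 0.00029). Ago2 IP over input was 1.20-fold in Ago2KO cells and 0.729-fold in untagged cells, so part of this difference came from the untagged IPs. Ago4 mRNA was scarce, at 2.28 to 4.00 CPM in the Ago2KO IPs against 0.617 to 1.55 CPM in the untagged IPs (1.80, SE 0.40). Ago3 was not called (0.45, SE 0.17, adjusted p = 0.066), with 19.4 to 24.9 CPM against 14.8 to 15.9 CPM in the IPs. It was called higher without untagged input replicate 3 (adjusted p = 0.028), without Ago2KO input replicate 3 (adjusted p = 0.047) and with a replicate block by culture (adjusted p = 0.031), which made the count 7 of 7.

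Tnrc6b mRNA had 145, 155 and 141 CPM in the Ago2KO IPs against 41.5 to 55.5 CPM in the untagged IPs (log2 difference 1.38, SE 0.15), and Tnrc6c 130 to 162 against 77.8 to 89.6 CPM (0.72, SE 0.12). Against tagged cells, Ago2 (-0.97, SE 0.14, adjusted p = 5.4e-05), Ago1 (-0.58, SE 0.15, adjusted p = 0.020) and Ago3 (-0.69, SE 0.17, adjusted p = 0.014) were called lower. The Ago1 call was lost without any of 6 libraries, at adjusted p values up to 0.090 without tagged IP replicate 1, and in a fit of those lines alone (adjusted p = 0.13). The Ago3 call was lost without Ago2KO input replicate 3 (adjusted p = 0.054) or tagged IP replicate 1 (adjusted p = 0.053). Tnrc6b and Tnrc6c were not called there (-0.45, SE 0.14 and -0.12, SE 0.11).

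Reported targets of the miR-290 family were called higher without Ago2 in 10 of 10 cases with rows (Dkk1, also listed, was not analysed here), with a median log2 difference of 2.14 against 0.00 over all genes. 15.8% of all genes were called higher. Cdkn1a and Rbl2, above, headed the list. The apoptotic caspase Casp2 (3.27, SE 0.23), the mitotic entry kinase inhibitor Wee1 (2.43, SE 0.15), the Hippo kinase Lats2 (2.30, SE 0.38), the receptor Tgfbr2 (1.97, SE 0.31) and the p53-responsive Ei24 (1.57, SE 0.15) followed. The symbol Lats2 was shared between rows, and the row with the most counts was taken. At the low end lay the iron-sensing ubiquitin ligase subunit Fbxl5 (1.04, SE 0.12), the small GTPase Rhoc (0.89, SE 0.13) and the kinase Akt1 (0.70, SE 0.14). Against tagged cells Ei24 (-1.28, SE 0.15, adjusted p = 4.3e-06) and Akt1 (-0.54, SE 0.14, adjusted p = 0.021) were called lower, the Akt1 call being lost without any of 6 libraries (adjusted p = 0.094 without tagged IP replicate 1) and in a fit of those lines alone (adjusted p = 0.099).

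All 6 reported miR-17 family targets were called higher (15.8% of all genes were), with a median of 1.82. Besides Cdkn1a and Tgfbr2, which both lists hold, these included the zinc finger gene Zbtb4 (2.96, SE 0.32), the pro-apoptotic Bcl2l11 (1.67, SE 0.17) and the cell-cycle factor E2f1 (1.29, SE 0.18). Against tagged cells Bcl2l11 and Zbtb4 (-1.37, SE 0.30, adjusted p = 0.0056) were called lower; the Zbtb4 call was lost in a fit of the Ago2KO and tagged libraries alone (adjusted p = 0.067). In both lists every member was also called higher under each alternative tried.

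Of 30 reported let-7 family targets, 14 were called higher without Ago2 and none lower (15.8% and 5.11% of all genes were), with a median of 0.39. At an unadjusted p under 0.05 the count lower was 0, and with DESeq2 also 0; without untagged IP replicate 3, 1 was called lower. The mTOR complex subunit Rictor (2.14, SE 0.15) and the heme-responsive repressor Bach1 (2.07, SE 0.15) were highest. Myc (-0.10) and Hmga2 (0.24) were not called. Against tagged cells 5 of the 30 were called lower (3.77% of all genes were), E2f5, Tgfbr1, Ccnd1, Trim71 and Igf2bp3. The list overlaps other lists here in Lin28a, Lin28b, Dicer1 and Trim71. Trim71 mRNA, which encodes the TRIM71 protein, had 460, 415 and 356 CPM in the Ago2KO IPs against 212 to 252 CPM in the untagged IPs (0.83, SE 0.12), and was lower than in tagged cells (-0.58, SE 0.12, adjusted p = 0.0027).

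Of 8 reported TRIM71 targets with rows, 7 were called higher without Ago2 (15.8% of all genes were), with a median of 1.73 (1.78 in tagged cells). Cdkn1a and Rbl2 belong to this list as well. The splicing regulator Mbnl1 (3.21, SE 0.24), the activin subunit Inhbb (2.48, SE 0.21), the pocket protein Rbl1 (0.97, SE 0.13), the plexin receptor Plxnb2 (0.67, SE 0.17) and the Egr corepressor Nab2 (0.61, SE 0.12) were the others. Egr1, an immediate early gene, was not called (0.56, SE 0.75, adjusted p = 0.67). Its Ago2KO IPs had 242, 178 and 114 CPM and the same-numbered inputs 169, 133 and 87.3 CPM, while the untagged IPs had 28.0, 30.7 and 84.7 CPM and their inputs 30.8, 31.7 and 91.6 CPM. Level thus varied between replicates of a line while IP and input of 1 number lay close, and with a replicate block by culture Egr1 was called higher (0.54, SE 0.08, adjusted p = 4.1e-05), which made the count 8 of 8. Against tagged cells only Mbnl1 was called lower (-0.93, SE 0.22, adjusted p = 0.0095), and this call did not survive a fit limited to those lines (adjusted p = 0.087).

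Among 15 cell-cycle inhibitor genes, 8 were called higher and 0 lower, with a median of 0.69. Besides those above they included the Hippo kinase Lats1 (3.58), Cdkn1b (0.77, SE 0.11), which encodes p27, and the retinoblastoma gene Rb1 (0.69, SE 0.13). The 4 INK4 genes Cdkn2a to Cdkn2d had log2 differences of -0.28, -0.61, -0.58 and 0.05 and were not called. At an unadjusted p under 0.05 and with DESeq2 the count lower was 2. For comparison, the whole set of genes tested had 15.8% higher calls and 5.11% lower calls at the adjusted threshold.

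Of 28 deadenylation, decapping and P-body genes, 12 were called higher and 0 lower (3 lower at an unadjusted p under 0.05, 3 with DESeq2), with a median of 0.26. Of all genes, 15.8% were called higher, 5.11% lower, and 3.77% lower than in tagged cells. Tob1 (3.76, SE 0.17) and Tob2 (3.35, SE 0.23), antiproliferative adaptors of the CCR4-NOT deadenylase, were highest, followed by its catalytic subunits Cnot6 (2.30) and Cnot6l (1.97) and the decapping genes Dcp1b (1.88) and Dcp2 (1.36). The scaffold Cnot1 was called at 0.39. Core members such as Cnot3 (-0.21), Pan2 (-0.20) and Pabpc1 (-0.18) were not called. Dcp2 (-1.11), Cnot6 (-0.79), Cnot6l (-0.77), Lsm14b (-0.56) and Cnot9 (-0.32) were called lower than in tagged cells, and the Cnot9 call was lost without any of 6 libraries (adjusted p = 0.11 without tagged input replicate 3), with library size alone (adjusted p = 0.23) and in a fit of those lines alone (adjusted p = 0.093).

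Of 13 microRNA biogenesis genes, 4 were called higher and 1 lower, where 15.8% and 5.11% of all genes were. Those higher were Lin28a (0.74, SE 0.10), Lin28b (0.74, SE 0.18), Dicer1 (0.46, SE 0.10) and Drosha (0.35, SE 0.08). Dgcr8, the partner of Drosha, was called lower (-0.33, SE 0.10), a call lost without untagged input replicate 2 (adjusted p = 0.054), and Drosha was not called with library size alone (adjusted p = 0.057). The list median was 0.11. Among 17 naive pluripotency genes 6 were called higher and 1 lower, with a median of -0.01. The call of Tfcp2l1 (0.27, SE 0.09) was lost with RLE size factors (adjusted p = 0.052) and with library size alone (adjusted p = 0.24). It was also lost in 6 of 12 fits with 1 library left out. The growth factor Fgf4 (2.91, SE 0.17) and the transcription factor Klf2 (1.92, SE 0.17) stood highest, whereas Nanog (-0.11, SE 0.09), Esrrb (-0.08, SE 0.07) and Pou5f1 (-0.24, SE 0.09) were not called. Pou5f1 missed the call narrowly (adjusted p = 0.053), and it was called lower in 7 of 7 other settings (adjusted p = 0.0056 to 0.038) and in 5 of 12 fits with 1 library left out (without untagged input replicate 1, Ago2KO input replicate 1, untagged IP replicate 1 or 2, or Ago2KO IP replicate 3; adjusted p = 0.013 to 0.045), at log2 differences of -0.33 to -0.24. Dppa5a was the gene called lower (-0.38, SE 0.10).

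Several abundant RNA classes lay below the median gene. Of 76 cytosolic ribosomal protein genes, 53 were called lower without Ago2 and 0 higher, with a median log2 difference of -0.32 and a range of -0.44 to 0.21, against 5.11% of all genes called lower. Rps29 (-0.44, SE 0.11) and Rplp1 (-0.40, SE 0.11) were the lowest called, and the shift of this list was also -0.36 in tagged cells. At an unadjusted p under 0.05, 70 were lower and 0 higher, and with DESeq2 70 and 0; without Ago2KO IP replicate 1, 35 were called lower and the median was -0.28. The list was added after these data had been seen. Of 13 mitochondrially encoded mRNAs, 5 were called lower (ND4, COX2, COX3, COX1 and ND6, -0.60 to -0.46) and 0 higher. The median of the 13 was -0.50, against -0.79 in tagged cells. At an unadjusted p under 0.05, 6 were lower and 0 higher, and with DESeq2 5 and 0; the count lower was 1 without Ago2KO input replicate 1 and 2 without untagged input replicate 1, Ago2KO input replicate 2 or Ago2KO IP replicate 1.

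None of 35 replication-dependent histone genes was called (6 lower and 0 higher at an unadjusted p under 0.05, 0 and 0 with DESeq2), with a median of -0.20. Their input level was low, with all 35 together at 54.1 to 60.0 CPM in untagged and 56.2 to 61.9 CPM in Ago2KO cells. Among genes tested with an input of up to 1.28 CPM, 3.94% were called higher and 0.784% lower. A missing call at a low level does not show that association was absent. These mRNAs lack a poly(A) tail, and the part of this or of the low level in the missing calls was not tested. Of 12 nuclear and structural non-coding RNAs, Tug1 was called higher (0.35, SE 0.09) and Gas5 (-0.33, SE 0.10) and Meg3 (-0.37, SE 0.11) lower, with a median of -0.22. Of all genes, 15.8% were called higher and 5.11% lower. The Tug1 call was lost without untagged IP replicate 3 (adjusted p = 0.061) and with library size alone (adjusted p = 0.083), the Gas5 call without Ago2KO IP replicate 2 (adjusted p = 0.054) and the Meg3 call without Ago2KO IP replicate 1 (adjusted p = 0.051). Malat1 (-0.18) and Neat1 (-0.20) were not called.

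**Figure D4:**
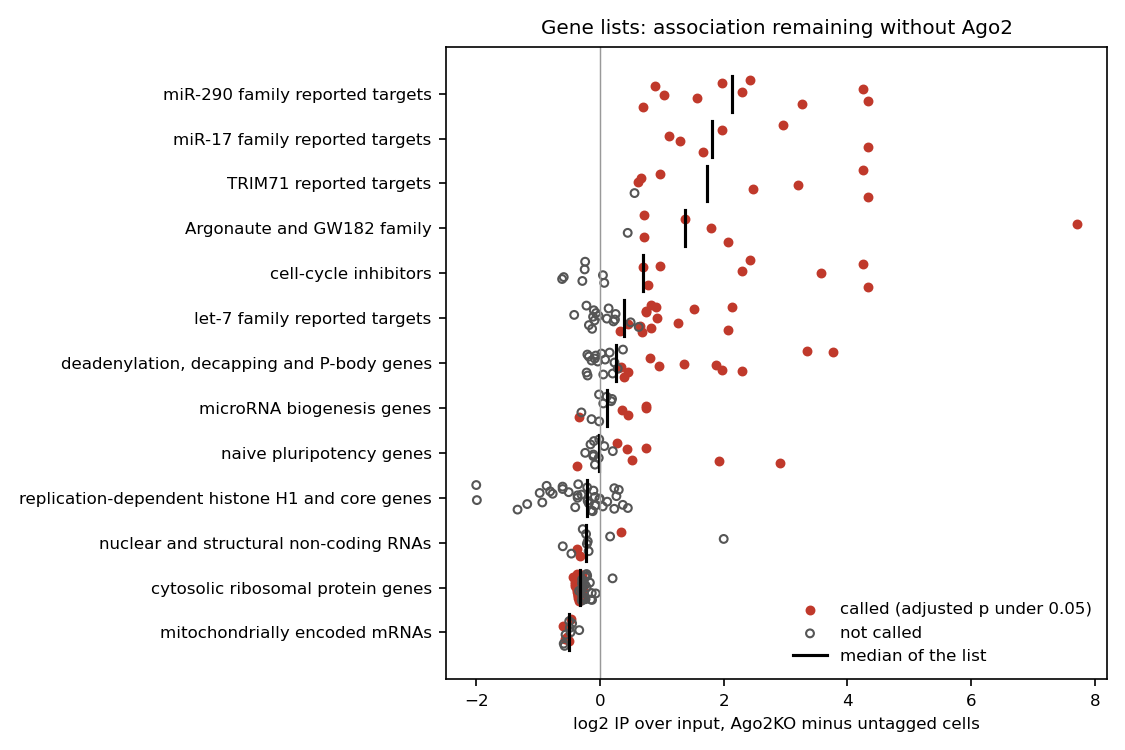
Log2 difference of IP over input, Ago2KO minus untagged cells, for each tested member of 13 gene lists (filled, called at an adjusted p under 0.05; open, not called), with the list median as a bar. Medians run from -0.50 for mitochondrially encoded mRNAs to 2.14 for reported miR-290 family targets.

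The RNAs with the lowest differences moved by far less than those at the top. Parp1 (chr1:180568891-180600999), the DNA damage poly(ADP-ribose) polymerase, had 2613, 1182 and 1752 CPM in the untagged IPs and 1068, 1025 and 1032 CPM in the Ago2KO IPs (log2 difference -0.94, SE 0.22, adjusted p = 0.0024). Inputs were 885 to 964 and 957 to 1040 CPM, so the untagged IP stood 2.02-fold over its input and the Ago2KO IP 1.05-fold. The Ago2KO IP was thus near its input, and the untagged IP above it. The other 7 lowest were Accs (-0.85), the transporters Slc22a17 (-0.76) and Slc12a9 (-0.70), Shisa4 (-0.75), Lrrc27 (-0.74), Fam183b (-0.73) and Tmem218 (-0.71). Their levels were low, 2.71 to 17.8 CPM in the 12 libraries. The Slc12a9 call was lost without any of 5 libraries (adjusted p = 0.091 without Ago2KO IP replicate 1), and the Fam183b call without untagged input replicate 2 (adjusted p = 0.065) or Ago2KO input replicate 3 (adjusted p = 0.075). Another RNA of the bead background, the adaptor gene Bcar1, took up 0.613% to 2.76% of the counts of the untagged IPs and 0.613% to 1.37% of those of the Ago2KO IPs.

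The association remaining without Ago2 was then set against tagged cells with Ago2. Over all genes, 746 were called lower in Ago2KO than in tagged cells (3.77%) and 76 higher (0.384%), 4.16% in all, 108 and 11 of them by at least 2-fold. Of the 3558 genes of the experiment 1 list, 686 were called lower than in tagged cells (19.3%) and 9 higher, with a median log2 difference of -0.26. The count of lower calls over all genes was 1144 without tagged IP replicate 3, and that of higher calls 44 without Ago2KO input replicate 1.

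Bcl2l11 (chr2:128126038-128162547), which encodes the BH3-only protein BIM, kept part of its association. It had 166, 127 and 109 CPM in the Ago2KO IPs, 30.3 to 32.9 CPM in the untagged IPs and 520, 420 and 349 CPM in the tagged IPs. No 2 of these groups overlapped, at 3.0-fold over input without Ago2 and 12.2-fold in tagged cells (Ago2KO minus untagged 1.67, SE 0.17; Ago2KO minus tagged -2.03, SE 0.17, adjusted p = 2.1e-08). Zfp385a (chr15:103313895-103340086), a zinc finger RNA-binding protein gene, had 394, 262 and 246 CPM in the Ago2KO IPs and 1002, 747 and 570 CPM in the tagged IPs (2.28, SE 0.20 and -1.81, SE 0.20). Ankrd52, a regulatory subunit of the phosphatase that acts on Argonaute, had 375, 302 and 280 against 769, 620 and 485 CPM (2.21, SE 0.17 and -1.75, SE 0.16). The actin-severing factor Cfl2 (1.29, SE 0.17 and -1.75, SE 0.16) and the Mediator kinase Cdk19 (3.33, SE 0.28 and -1.69, SE 0.26) had the same order of the 3 lines.

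Tmem50b showed the least association of these 6 genes without Ago2. Its Ago2KO IPs had 52.0, 47.3 and 50.6 CPM, the untagged IPs 29.2 to 31.7 CPM and the tagged IPs 132 to 167 CPM. With Ago2KO inputs of 31.6 to 40.0 CPM, the difference from untagged cells was 0.46 (SE 0.14, adjusted p = 0.020) and that from tagged cells -1.83 (SE 0.14, adjusted p = 2.6e-09). The call against untagged cells was lost without any of 5 libraries (adjusted p = 0.074 without untagged IP replicate 3) and with library size alone (adjusted p = 0.061), while the call against tagged cells held under each alternative. Input levels of Cfl2 (0.60), Ankrd52 (0.65) and Bcl2l11 (0.43) were called higher in Ago2KO than in untagged cells on the log2 scale.

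A few RNAs were held more without Ago2 than with it. Hip1r (chr5:123973602-124003215), a clathrin and actin adaptor gene, had 304, 208 and 177 CPM in the Ago2KO IPs. In the untagged IPs it had 28.8 to 35.7 CPM and in the tagged IPs 39.6 to 42.0 CPM, with inputs of 30.9 to 34.8 CPM in all 3 lines. Its IP over input was 6.83-fold without Ago2 and 1.24-fold in tagged cells (Ago2KO minus untagged 2.73, SE 0.18, adjusted p = 8.0e-12; Ago2KO minus tagged 2.46, SE 0.18, adjusted p = 9.3e-10). The related Hip1 (chr5:135406496-135545323) had 395, 274 and 205 CPM in the Ago2KO IPs, 36.9 to 40.3 CPM in the untagged IPs and 57.2 to 66.5 CPM in the tagged IPs (2.92, SE 0.22 and 2.04, SE 0.22). For both genes the Ago2KO IPs were above every library of the other lines.

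The next 4 differed less. Tnfsf9, a TNF family ligand, had 42.7, 26.3 and 29.1 CPM in the Ago2KO IPs and 16.6 to 25.7 CPM in the tagged IPs (Ago2KO minus tagged 1.03, SE 0.28, adjusted p = 0.028). Herpud1, of endoplasmic reticulum protein degradation, had 128, 81.8 and 74.9 against 45.8 to 68.7 CPM (0.82, SE 0.22, adjusted p = 0.028), and the sialyltransferase St3gal4 33.2, 20.5 and 21.6 against 17.9 to 20.3 CPM (0.82, SE 0.22, adjusted p = 0.026). The kinase Aatk was at 5.88 to 6.01 CPM against 4.37 to 5.83 CPM (0.88, SE 0.20, adjusted p = 0.0091), with a lower input in Ago2KO than in untagged cells (-0.72). Its untagged IPs had 5.03 to 6.23 CPM, which covered the Ago2KO IPs. Its inputs were 3.12 to 3.34 CPM in Ago2KO and 4.64 to 5.23 CPM in tagged cells. The calls of Tnfsf9, Herpud1 and St3gal4 were lost when single libraries were left out, without Ago2KO IP replicate 1 at adjusted p = 0.055, 0.054 and 0.067, and in a fit of the Ago2KO and tagged libraries alone, at 0.11, 0.18 and 0.15; that of Aatk held under each alternative.

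**Figure D5:**
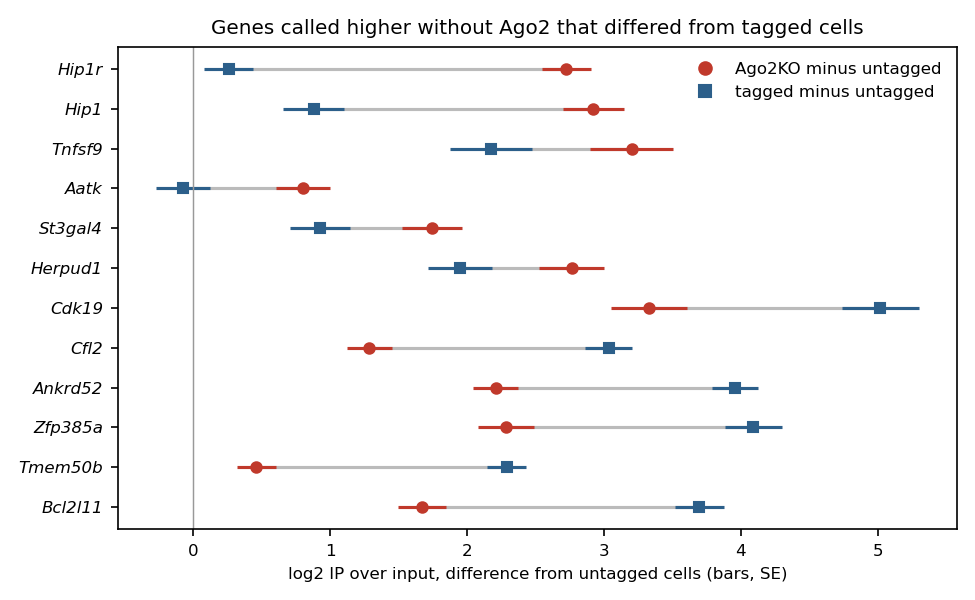
Log2 difference of IP over input from untagged cells, for Ago2KO (circles) and tagged cells (squares) of experiment 2, with SE bars, for the 6 highest and 6 lowest Ago2KO minus tagged differences among genes called in both comparisons. Both lines are set against the same untagged libraries; Bcl2l11 lies at 1.67 and 3.70, Hip1r at 2.73 and 0.26.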

How the data were processed

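RNA from anti-HA IPs and inputs was sequenced with a stranded total RNA kit, per the labels' protocols, 3 libraries a group. Per the submitters' processing notes, bcl2fastq 2.20, STAR 2.7.3a and the GRCm38 (mm10) build were used. The authors deposited raw counts per gene for each experiment; the counting tool, annotation and strand setting are not given in the sources used here, and RNA from overlapping or antisense genes may not be told apart. The 42 RPKM columns were not used.

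Counts of experiment 2 (24 libraries, 8 groups) were fitted together in edgeR 4.0.16 (R 4.3.3) with filterByExpr, TMM factors and glmQLFit, and the difference of IP minus input between lines was tested with glmQLFTest; experiment 1 was fitted separately. SE is the absolute log2 difference over the square root of F. Errors come from the spread between libraries, and no 2 replicates agreed within sampling noise. The script was tested on simulated data.

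Genes were named by rule: the GW182 and Argonaute genes and Trim71; the 12 highest and 8 lowest called differences with a unique symbol, a mean log2 CPM of at least 2 and IP minus input values separated between the lines; the 6 highest and 6 lowest Ago2KO minus tagged differences among genes called in both; and the extreme called members of each list, with lists of 11 or fewer in full, except 1 result that is not reported here. Other genes named, in lists and beside them, were chosen after their values were seen. The comparison, members and lists were chosen with earlier results of these data known. Gene positions are those of RefSeq GRCm38.p6, matched by symbol for 16239 tested genes. Alternatives were RLE factors, library size alone, no filter, DESeq2 1.42.0, a fit of only the groups compared, replicate blocks and each library left out; leaving out libraries of experiment 1 was added after seeing the data.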

Additional observations from a re-analysis of the deposited data

Results flagged for a closer look

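The 12 genes below, all called higher without Ago2, also differed between the Ago2KO and tagged lines, by a test of the difference itself (edgeR's quasi-likelihood test, Ago2KO minus tagged, log2 scale). The difference was -2.03 for Bcl2l11, -1.83 for Tmem50b, -1.81 for Zfp385a, -1.75 for Ankrd52, -1.75 for Cfl2 and -1.69 for Cdk19. It was 2.46 for Hip1r, 2.04 for Hip1, 1.03 for Tnfsf9, 0.88 for Aatk, 0.82 for St3gal4 and 0.82 for Herpud1. These genes were taken as the extremes of that comparison, so their size is a description. More genes than these were called in both comparisons. The calls of Tnfsf9, St3gal4 and Herpud1 against tagged cells were lost under some alternatives, as given above.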

How the results depend on the processing

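The count of genes called higher without Ago2 was 2564 to 3298 over 7 other settings and 2697 to 3085 with single libraries left out, that of genes higher by at least 2-fold 1052 to 1360, and that of the experiment 1 list 2145 to 2436. The experiment 1 list held 3488 to 3824 genes over its alternatives, and 64.8% to 67.6% of them were called higher. The count called lower, 1010, was 1570 with RLE size factors, 1913 with library size alone and 1671 with DESeq2, and 564 to 1389 with single libraries left out. Against tagged cells, 746 genes called lower became 468 with library size alone and 515 to 1144 with single libraries left out. The 76 called higher became 165 with library size alone, 38 with only the groups compared and 44 to 101 with single libraries left out. Why these counts moved was not tested. The replicate numbers were not taken to pair the samples, since not every same-numbered pair had deviations correlated above 0.1 across genes. The correlations were 0.08, 0.10 and -0.003 for Ago2KO and untagged IPs, and 0.57, 0.07 and 0.41 for Ago2KO and tagged IPs. They were 0.21, 0.01 and 0.21 for Ago2KO and tagged inputs, and 0.11, 0.02 and 0.21 for Ago2KO IPs and their own inputs. For untagged IPs and their own inputs they were 0.0004, 0.05 and 0.15. Some numbers thus moved together. These correlations do not show whether an IP and an input of 1 number came from 1 culture. With the replicate block within fraction, 3238 genes were called higher and 1259 lower without Ago2, and 134 were called higher than in tagged cells; with the replicate block by culture these were 3298, 1256 and 116. Of 109 called results for single genes, 83 kept the call under every alternative, 26 lost it under at least 1, and 0 reversed. Against untagged cells 70 of 87 kept it, and the share kept was lower for calls against tagged cells. Library size alone moved the median of all genes to -0.10. Genes of low count, such as Ago4, have wide errors.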

Other observations

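Longer genes were called higher without Ago2 more often. In 5 equal bins of the genes tested, from the shortest to the longest by the length given in the count table, 4.47%, 8.98%, 15.3%, 21.8% and 28.6% were called higher, and the median log2 difference was -0.14, -0.07, -0.01, 0.05 and 0.15. The untagged IP over input ran the other way, with a median of 0.04 in the shortest and -0.09 in the longest bin. By input level, from the lowest to the highest of 5 bins, 3.94%, 10.5%, 18.5%, 26.0% and 20.3% of genes were called higher; the part of read depth in the length pattern was not tested.

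Protein-coding genes by RefSeq type were called higher in 19.5% of 14420 cases, lncRNAs in 8.83% of 691 and pseudogenes in 2.49% of 882, with medians of 0.02, 0.05 and -0.20. Genes whose symbol is Zfp and a number, a group chosen after values were seen, include many KRAB zinc finger genes. Of 356 tested, 132 were called higher (37.1%, against 15.8% of all genes), 55 of them by at least 2-fold, with a median of 0.30. In tagged cells of experiment 2 the median of these genes was 0.17. Against tagged cells, 16 were called lower and 11 higher, 4.49% and 3.09%, against 3.77% and 0.384% of all genes.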
